A study of Mus musculus with 9 samples.

Results

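The adrenergic and adenosine receptors described here were the 6 genes Adrb1, Adra2a, Adora1, Adora2a, Adora2b and Adora3, taken by their symbols from a table of 45664 gene symbols, with no use of their values in the choice. All 6 were in the table, and 4 of them (Adrb1, Adra2a, Adora1 and Adora3) had enough reads to be tested, among 13067 genes tested. The libraries came from microglia of the visual cortex of 9 male C57BL/6 mice, 1 library per mouse, sorted as live cells (propidium iodide negative) that carried CD11b and little CD45. Per the labels, 4 mice had received ethanol (20% v/v) under the skin of the back from P4 to P9, as 2 injections of 1.8 g/kg per day given 2 h apart, a daily dose of 3.6 g/kg, and 5 mice had received the same volume of saline (0.9%). The labels name no transgene. The mice came from 3 litters that the labels do not assign, so litter and treatment cannot be told apart. The saline mice 1 to 5 were taken at postnatal days 36, 30, 35, 29 and 30 and the ethanol mice 1 to 4 at days 35, 35, 30 and 30. The older cohort (days 35 and 36) therefore held saline 1, saline 3, ethanol 1 and ethanol 2, and the younger cohort (days 29 and 30) held saline 2, saline 4, saline 5, ethanol 3 and ethanol 4. The spread between mice and that of sorting and library making cannot be told apart, since no mouse was measured more than once.

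Adrenergic receptors are membrane receptors for noradrenaline and adrenaline that act through G proteins. The beta receptors, here Adrb1, couple to the stimulatory G protein and raise cyclic AMP (cAMP), the small messenger that activates protein kinase A, while the alpha-2 receptors, here Adra2a, couple to inhibitory G proteins and lower it. Adenosine, which forms outside cells when ATP is broken down, acts on a parallel family in which Adora1 and Adora3 couple to inhibitory and Adora2a and Adora2b to stimulatory G proteins. In microglia these receptors are known for setting the movement and branching of the cell processes and the response to injury, and Adora2a is known to appear on activated cells.

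The sequence just before the transcription start differed between the best expressed members, and 3 promoters are shown because they belong to the most abundant adenosine receptor and to both adrenergic receptors, whose levels had the widest relative spread among the 4 tested receptors. The 250 bases before the start were read from RefSeq (GRCm38.p6), which held entries for 5 of the 6 members and none for Adora2a. Capitals mark matches, on either strand, to letters searched for in every promoter: GAGGAAGT (a site of the ETS family, to which the myeloid factor PU.1 belongs), TGACGTCA and its shorter form TGACG (the cAMP response element, the full form always holding the short one), TATAAA (the TATA box) and CACGTG (an E-box). The Adora3 promoter lies at chr3:105904171-105904420, the Adra2a promoter at chr19:54045009-54045258 and the Adrb1 promoter at chr19:56721867-56722116, all on the plus strand.
Adora3: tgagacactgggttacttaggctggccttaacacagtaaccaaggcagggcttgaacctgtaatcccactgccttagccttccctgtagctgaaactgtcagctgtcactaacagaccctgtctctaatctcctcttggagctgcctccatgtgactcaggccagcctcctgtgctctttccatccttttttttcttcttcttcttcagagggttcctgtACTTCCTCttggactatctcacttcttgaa
Adra2a: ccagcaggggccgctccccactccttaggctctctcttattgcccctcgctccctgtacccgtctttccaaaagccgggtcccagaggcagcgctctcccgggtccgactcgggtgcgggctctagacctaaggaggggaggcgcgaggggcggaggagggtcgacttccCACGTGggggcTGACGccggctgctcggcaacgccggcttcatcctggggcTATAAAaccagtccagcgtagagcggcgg
Adrb1: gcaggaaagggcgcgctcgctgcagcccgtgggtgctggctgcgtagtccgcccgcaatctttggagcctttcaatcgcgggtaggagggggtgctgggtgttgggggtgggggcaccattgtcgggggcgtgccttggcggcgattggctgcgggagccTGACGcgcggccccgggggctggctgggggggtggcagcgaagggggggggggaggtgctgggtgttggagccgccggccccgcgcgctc
The Adora3 promoter held ACTTCCTC, the reverse complement of GAGGAAGT, with its first base at position -30 from the start, and 2.44% of the 32851 promoters of the same length held this motif. It had a GC content of 48.8% and 0 CpG dinucleotides, against a median of 52.4% and 6 CpG over all promoters. The Adrb1 promoter had a GC content of 74% with 24 CpG, and the Adra2a promoter 67.6% with 22 CpG. The short cAMP element TGACG stood at -90 in Adrb1 and at -69 in Adra2a, and 17.8% of all promoters held it. The Adra2a promoter also held TATAAA at -29 and CACGTG at -80, which 12.4% and 6.02% of all promoters held. No searched letters were found in the Adora2b window or in either of the RefSeq start windows of Adora1, and a match or its absence says nothing of whether a factor binds there.

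On the GRCm38 build, GENCODE release M21 places all 6 as protein-coding genes. Adrb1 (chr19:56722199-56733113) and Adra2a (chr19:54044151-54048982) lie on the plus strand of the same chromosome, and the principal transcript of each is a single exon. The Adra2a window printed above precedes the RefSeq start but lies inside this exon in GENCODE, so the 2 annotations differ on whether it is promoter. Adora1 lies at chr1:134199223-134235431 on the minus strand, and 20.1% of its exonic bases overlap exons of Mybph on the other strand. Adora2a is at chr10:75316877-75334784, Adora2b at chr11:62248984-62266453 and Adora3 at chr3:105870858-105908926, each on the plus strand. The Adora3 window printed above also lies inside the GENCODE span of its gene, which begins upstream of the window. Of the Adora3 exonic bases, 20.9% overlap exons of Tmigd3 on the same strand, and Tmigd3 stood between 1.22 and 2.41 CPM (counts divided by the library total after trimmed mean of M values, TMM, correction) in the 9 libraries. No label says how reads in these overlaps were counted, so the Adora1 and Adora3 levels carry that uncertainty.

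Library totals ranged from 12816198 to 28859244 counts, and 3 counts, the limit that a count of 0 allows, corresponded to 0.103 to 0.238 CPM. The 10 microglia markers, Cx3cr1, P2ry12 and Tmem119 among them, were detected in every library and summed to between 57768 and 67530 CPM. Markers of 2 other cell types set 1 library apart: 10 neuron markers summed to 3.70 CPM in saline 1 and to 76.1 to 292 CPM in the others, and 10 astrocyte markers to 6.90 CPM in saline 1 and to 89.5 to 268 CPM in the others. None of the 9 marker lists passed, between treatments, an exact two-sided permutation test of the summed CPM (all splits of the 9 mice, adjusted p from 0.476 to 0.675). Ethanol 2 also stood apart, with 623 of 8480 genes of at least 10 CPM more than 2-fold below the median of the other libraries, against 0 to 37 in the other libraries. Those low genes had a median transcript GC content of 53.2%, against 49.8% over the same 8480 genes where a value was matched. The labels give RNA integrity numbers of 9 (saline 2) to 9.9, with 9.2 for both saline 1 and ethanol 2. Fewer cells that carry a transcript and less of it per cell cannot be told apart in such pooled RNA.

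Adora3 and Adrb1 were the most abundant of the 6 receptors. Divided by transcript length (RPKM, counts scaled for depth and for length in kilobases), Adora3 stood at 24.2 ± 2.46 (SD, n = 9) and Adrb1 at 15.5 ± 6.25, and Adora3 was above Adrb1 in 8 of 9 libraries, all but saline 3. Adrb1 was above Adra2a, at 1.00 ± 0.57 RPKM, in 9 of 9 libraries, with a ratio of means of 15.4. Adra2a and Adora1 (0.683 ± 0.243 RPKM) did not separate, since Adra2a was the higher one in 6 of 9 libraries by transcript length and in 3 of 9 by coding length. Adora1 was above Adora2b (0.0724 RPKM) in 9 of 9 libraries. Adora2b was above Adora2a (0.0211 RPKM) in 5 of 9 libraries, and at these counts the order of the pair is not settled.

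**Figure D1:**
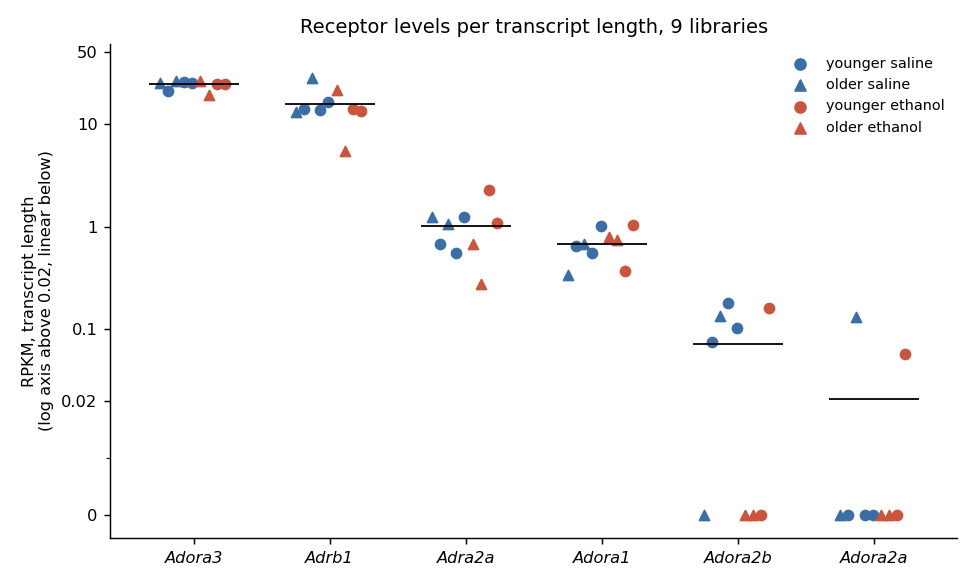
Levels of the 6 receptors in RPKM (y axis, logarithmic above 0.02 and linear below) by gene (x axis), 1 point per library and a line at the mean of 9. Adora3 and Adrb1 sit at means of 24.2 and 15.5, Adra2a and Adora1 overlap around 1.00 and 0.683, and Adora2b and Adora2a have libraries at 0.

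Of the other adrenergic receptor genes, Adra1d and Adra2b had 0 counts in all 9 libraries, and Adra1a, Adra1b, Adra2c and Adrb3 reached at most 0.544 CPM in any library, so that none of these 6 could be tested.

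Adrb1 showed a wide range that came from the older mice. Its level in the saline mice 1 to 5 was 38.9, 41.1, 83.0, 40.7 and 47.9 CPM, and in the ethanol mice 1 to 4 it was 63.0, 16.2, 41.2 and 39.0 CPM. Of the 9 values, 6 lay between 38.9 and 47.9 CPM, and the 3 outside that span (saline 3 and ethanol 1 above it, ethanol 2 below it) were all from older mice. The younger mice had a mean of 42.0 ± 3.43 CPM (SD, n = 5), a coefficient of variation (CV, the SD over the mean) of 8.16%, and the older mice 50.3 ± 29.02 CPM (n = 4), a CV of 57.7%. Over all libraries the CV of Adrb1 was 40.4%, and 99.5% of the 4206 tested genes within 2-fold of its level had a lower one, with a median of 11.6%. The low value of 16.2 CPM was in ethanol 2, the library with many low genes, whose median GC content was 53.2% against 49.8%. The Adrb1 transcript has a GC content of 58.8%, at or above that of 93.5% of the genes of at least 10 CPM with a value. Adora1 has a GC content of 54.2%, at or above that of 73.2% of those genes. It stood at 3.69 CPM in ethanol 2, against a median of 3.34 CPM over the 9 libraries. The part of library quality in the Adrb1 value was not tested.

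Adra2a, the inhibitory receptor, was lower and varied as widely. Its level was 6.00, 3.24, 5.16, 2.66 and 5.93 CPM in saline 1 to 5 and 3.25, 1.33, 10.9 and 5.19 CPM in ethanol 1 to 4. The ethanol mice held both the lowest value (ethanol 2) and the highest (ethanol 3), and all 5 saline values lay between them. Ethanol 3 also had the highest sums of 2 macrophage and blood cell marker lists. Its 6 border macrophage markers summed to 91.3 CPM, against 39.1 to 81.7 CPM in the others, and 89.1 CPM of this was Mrc1. The other border macrophage markers were not raised in ethanol 3. Lyve1 had 0 counts there and Cd163 and Cbr2 stood at 0.172 CPM each, all below the 5 saline mice. Pf4 and F13a1, at 0.516 and 1.38 CPM, lay within the range of the saline mice. The 6 monocyte and neutrophil markers of ethanol 3 summed to 15.8 CPM, against 3.51 to 7.37 CPM in the others. All of it came from Ccr2, while S100a8 and S100a9 had 0 counts in all 9 libraries. The part of such cells in the Adra2a value was not tested. Its CV over the 9 libraries was 57.2%, above that of 96.4% of the 1933 tested genes within 2-fold of its level, whose median was 24.0%. The Adra2a transcript, with a GC content of 58.6%, was also lowest in ethanol 2.

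Adora1, the inhibitory adenosine receptor best known from neurons, was low in all libraries. It stood at 1.68, 3.21, 3.34, 2.77 and 4.98 CPM in saline 1 to 5 and at 3.89, 3.69, 1.83 and 5.14 CPM in ethanol 1 to 4. Its lowest value was in saline 1, where neuron and astrocyte markers were close to 0, and its highest values were in ethanol 4 and saline 5, where both marker sums were highest. In saline 1, 8 of the 10 neuron markers and 7 of the 10 astrocyte markers still had a count. Neuron markers summed to 292 CPM in ethanol 4 and 240.5 CPM in saline 5, and astrocyte markers to 268 and 229 CPM. Ethanol 2 did not follow the neuron order, with Adora1 at 3.69 CPM beside a neuron sum of 76.1 CPM, the lowest after saline 1. Its Adora1 value was above 5 of the other libraries and below ethanol 4, saline 5 and ethanol 1. The astrocyte sum of ethanol 2, 131 CPM, was also below those of ethanol 4, saline 5 and ethanol 1 and above the rest. Ethanol 3 had the lowest Adora1 value after saline 1, with sums of 109.5 CPM for neurons and 101 CPM for astrocytes, the lowest but 2 in each. The part of other cells' RNA in the Adora1 level was not tested. Its CV of 35.6% was above that of 70.5% of genes within 2-fold of its level.

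**Figure D2:**
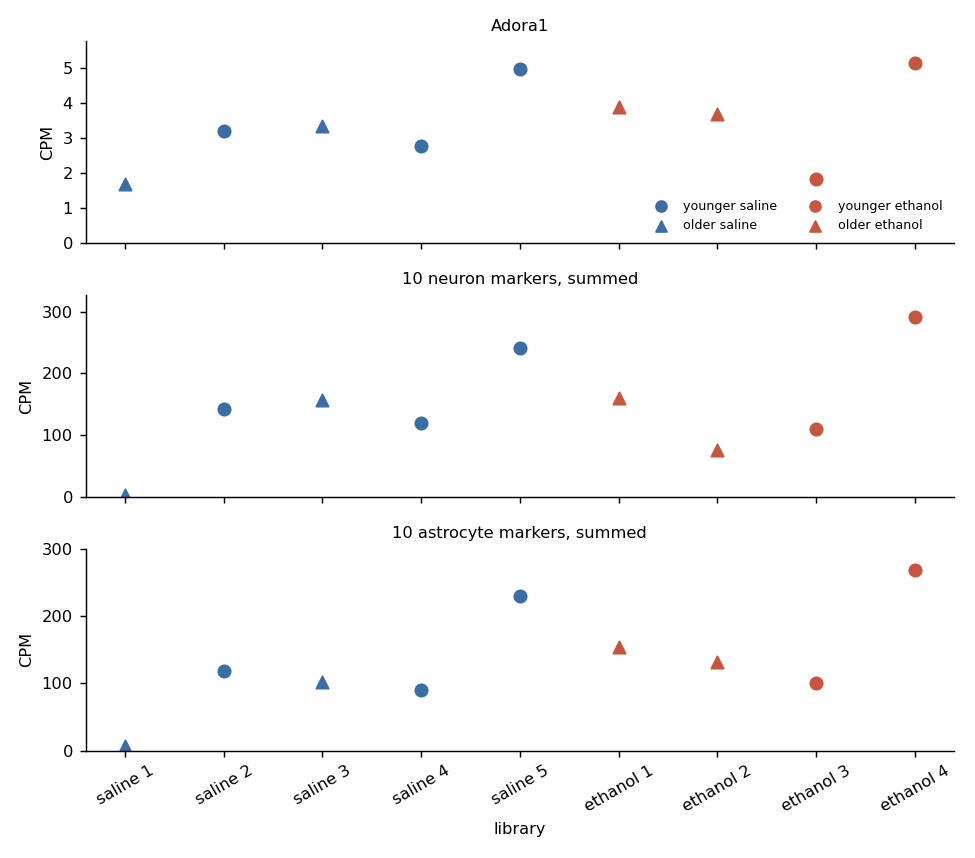
Adora1 (top), the sum of 10 neuron markers (middle) and the sum of 10 astrocyte markers (bottom), each in CPM on the y axis, by library on the x axis, with blue for saline, red for ethanol, circles for younger and triangles for older mice. Saline 1 is lowest and ethanol 4 highest in all 3 panels.

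Adora3, the other inhibitory adenosine receptor, was the steadiest member. It stood at 59.8, 49.8, 62.3, 60.7 and 59.7 CPM in saline 1 to 5 and at 62.2, 45.4, 58.1 and 58.6 CPM in ethanol 1 to 4. Apart from saline 2 and ethanol 2, the values lay between 58.1 and 62.3 CPM. Its CV of 10.2% was below the median of 11.2% for the 4022 tested genes within 2-fold of its level. The Adora3 transcript has a GC content of 49.0%, close to the median of the genes of at least 10 CPM, and its value in ethanol 2 was low by less than that of Adrb1.

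The stimulatory adenosine receptors were at the edge of detection. Adora2a had 7 counts in saline 3 (0.344 CPM), 3 counts in ethanol 4 (0.148 CPM) and 0 in the other 7 libraries. Its 10 counts over all libraries made 0.055 CPM, with an exact Poisson interval of 0.027 to 0.102 CPM that covers counting error only. Adora2b had 4, 5, 6 and 4 counts in saline 2 to 5, 6 counts in ethanol 4 and 0 in saline 1, ethanol 1, ethanol 2 and ethanol 3. Its 25 counts made 0.138 CPM (exact Poisson interval 0.090 to 0.204 CPM). Both were below the count filter, so neither was among the genes tested. At this depth their counts allow no statement on a difference between groups.

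**Figure D3:**
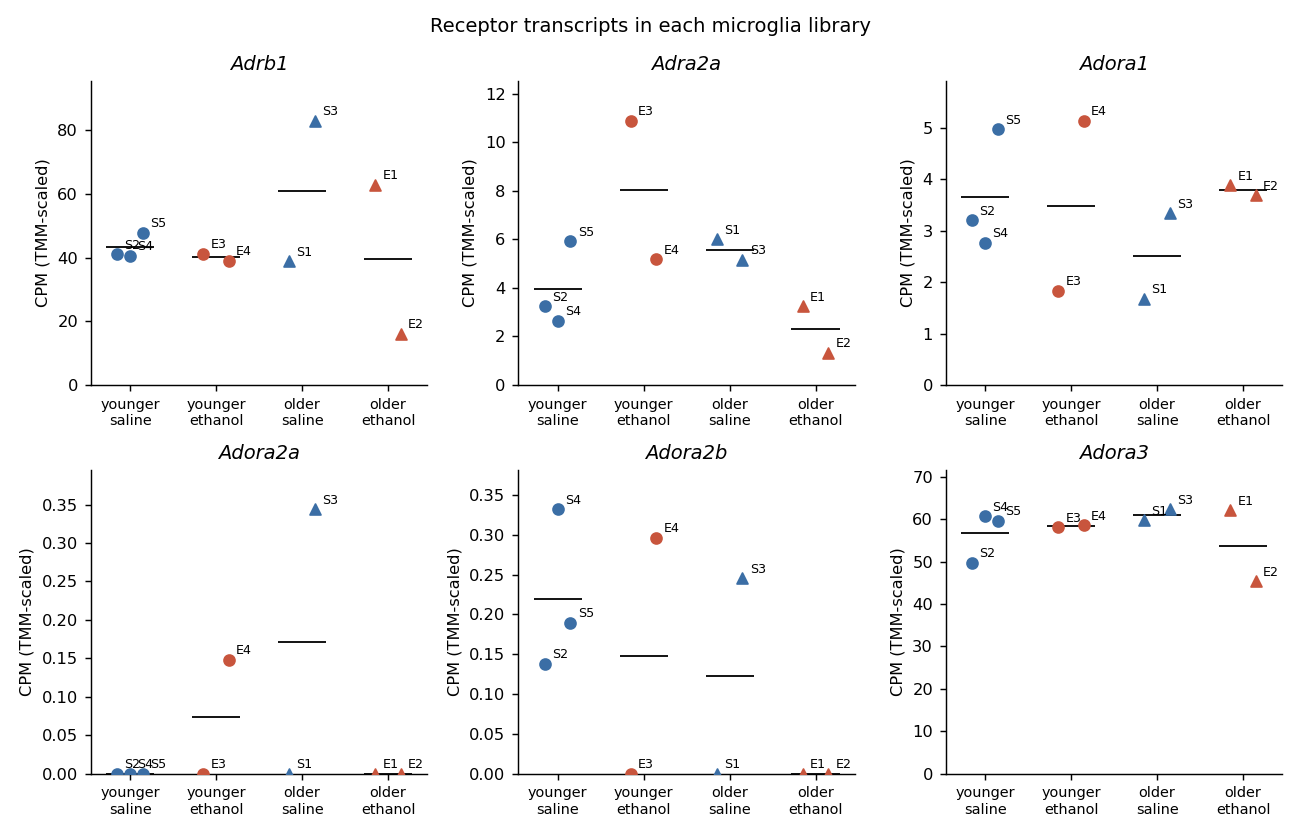
Level of each receptor in CPM (y axis) in the 9 libraries, by age cohort and treatment (x axis), with a line at each group mean. S and E with a number are the saline and ethanol mice, and the older mice of Adrb1 spread from 16.2 to 83.0 while the younger ones stay between 39.0 and 47.9.

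The comparison of ethanol with saline asked whether early ethanol exposure left a difference in receptor transcripts in adolescent microglia. None of the 4 tested receptors passed edgeR's quasi-likelihood test with Benjamini-Hochberg adjustment at 0.05, where 0% of the 13067 genes were called. At an unadjusted p under 0.05, 0 of the 4 passed, against 2.95% (386) of all genes, and DESeq2 and limma-voom, which also called 0 genes after adjustment, gave 435 and 493 genes at that level. The ethanol and saline values overlapped for all 4, as for all but 1.29% of genes. Adrb1 was 39.8 ± 19.1 CPM in ethanol (SD, n = 4) and 50.3 ± 18.6 CPM in saline mice (n = 5), a log2 fold change of -0.34 ± 0.35 (SE, 95% interval -1.12 to 0.43, adjusted p = 0.963). The Adra2a means were 5.17 ± 4.13 and 4.60 ± 1.55 CPM, with a log2 fold change of 0.17 ± 0.50 and an interval of -0.95 to 1.28. Adora1 stood at 3.64 ± 1.36 CPM in ethanol and 3.19 ± 1.19 CPM in saline mice, a log2 fold change of 0.19 ± 0.34 (interval -0.57 to 0.94).

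The interval was narrow for 1 receptor. Adora3 was 56.1 ± 7.34 CPM in ethanol and 58.4 ± 4.97 CPM in saline mice, a log2 fold change of -0.06 ± 0.11 with an interval of -0.30 to 0.17, so that a fold outside 0.814 to 1.13 lies beyond it. The intervals of Adrb1 (0.460 to 1.35 in fold), Adra2a (0.518 to 2.44) and Adora1 (0.674 to 1.92) leave room for larger differences. Of the 4 receptors 2 lay above 0, and their median was 0.05 on the log2 scale, beside 49.8% of all genes above 0 and a median of -0.0007. Leaving out ethanol 2 moved Adrb1 from -0.34 to -0.09, and leaving out saline 3 also gave -0.09.

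Age cohort also gave no called difference, but the Adrb1 result depended on the libraries that stood apart. All libraries with the name suffix 1-6-16 were from younger mice, and saline 4 was the only younger library with another suffix, 1-5-16. Age and suffix were thus largely confounded, here and in the interaction, and the labels do not say what the suffix marks. With treatment in the fit, 0% of genes and 0 of the 4 receptors were called, and 0 of the 4 receptors against 2.85% of genes (372) passed an unadjusted p of 0.05. DESeq2 and limma-voom called 0 genes and gave 451 and 467 at an unadjusted p under 0.05. The cohorts overlapped for all 4 receptors, as for all but 1.24% of genes. The older-against-younger log2 fold change was 0.26 ± 0.35 for Adrb1, -0.49 ± 0.53 for Adra2a (3.93 ± 2.08 CPM in older and 5.58 ± 3.26 CPM in younger mice), -0.24 ± 0.36 for Adora1 and 0.004 ± 0.11 for Adora3, with adjusted p from 0.973 to 0.995. Of the 4 receptors 2 lay above 0, with a median of -0.12, beside 45.2% of all genes and a median of -0.02.

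Without saline 1 and ethanol 2, Adrb1 was higher in the older mice by a log2 fold change of 0.81 ± 0.11 (SE, edgeR adjusted p = 0.0128). It was then 1 of 3 genes called, with Nfkbia, the inhibitor of NF-kB that this factor itself induces, at 0.73 ± 0.08 and Tagap, a GTPase-activating protein of immune cells, at 0.93 ± 0.09; these last 2 are named because of this call. The 2 libraries left out held the 2 lowest Adrb1 values of the older mice, 38.9 CPM in saline 1 and 16.2 CPM in ethanol 2. Saline 1 was level with the lowest of the 5 younger mice, ethanol 4 at 39.0 CPM, and ethanol 2 lay below all of them. The call thus rests on leaving saline 1 and ethanol 2 out. The older group then held 2 mice, saline 3 at 83.0 and ethanol 1 at 63.0 CPM, above all 5 younger mice, of which saline 5 was the highest at 47.9 CPM. Both mice share the library-name suffix 1-5-16 with saline 4, a younger mouse at 40.7 CPM, and with ethanol 2. With saline 1 and ethanol 2 kept, the difference of 0.26 over all 9 libraries was -0.09 without saline 3 and -0.04 without ethanol 1.

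**Figure D4:**
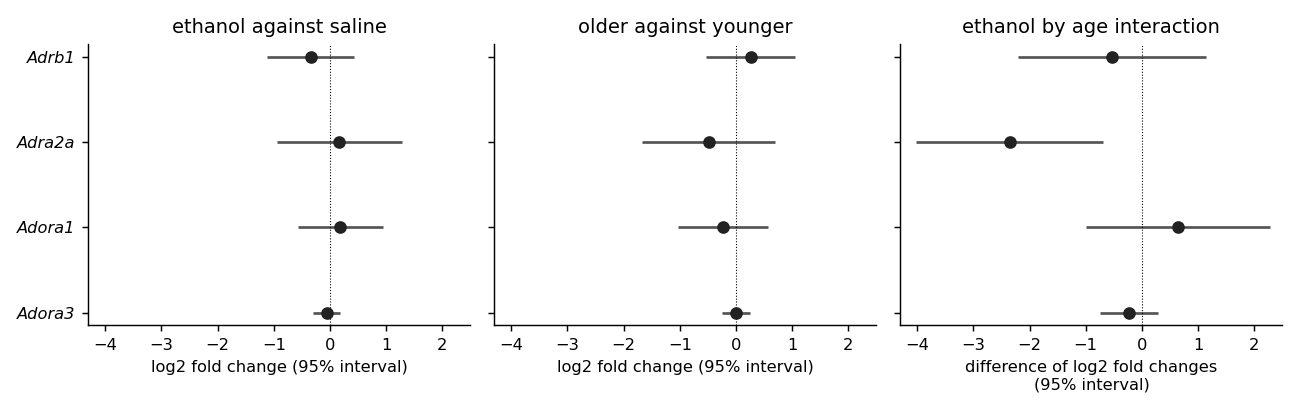
Log2 fold changes of the 4 tested receptors (x axis) with 95% intervals for ethanol against saline, for older against younger mice, and for the difference between the ethanol effects of the cohorts. Of the 12 intervals, the one of Adra2a in the third panel, from -4.02 to -0.69, does not include 0 before adjustment.

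Whether the ethanol difference itself differed between the cohorts was tested with an interaction term. The term is the ethanol-against-saline log2 fold change in older mice minus that in younger mice. No gene was called (0% of 13067). Limma-voom also called 0, with 632 genes at an unadjusted p under 0.05, and DESeq2 called 1, C130089K02Rik, which is no receptor, with 442. Adra2a had the lowest term of the 4 receptors, -2.35 ± 0.74 (SE, 95% interval -4.02 to -0.69), with an unadjusted p of 0.0109 by edgeR's quasi-likelihood test, rank 63 of 13067, and an adjusted p of 0.972. It was 1 of 4 receptors at an unadjusted p under 0.05, where 3.24% of genes (423) passed.

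Behind the Adra2a term, the 2 older ethanol mice stood at 3.25 and 1.33 CPM, both below the 2 older saline mice at 6.00 and 5.16 CPM. The 2 younger ethanol mice stood at 10.9 and 5.19 CPM, and the 3 younger saline mice at 3.24, 2.66 and 5.93 CPM, so that these groups overlapped. Fitted on older mice alone the ethanol log2 fold change of Adra2a was -1.31 ± 0.53 (edgeR unadjusted p = 0.0501), and on younger mice alone 1.02 ± 0.40 (unadjusted p = 0.0291), with adjusted p of 0.988 and 1.00. The interaction passed adjustment in 2 alternatives. With no count filter it was -2.34 (adjusted p = 0.0114, 1 of 53 genes called), and without ethanol 1 it was -3.06 (adjusted p = 0.0365, 1 of 848 genes called), a fit that leaves ethanol 2 as the lone older ethanol library and assumes that it varies like the rest. Without ethanol 2 it was -1.80 and without ethanol 3 it was -1.72, neither past the threshold. The terms of the other receptors were -0.53 ± 0.73 for Adrb1, 0.65 ± 0.73 for Adora1 and -0.23 ± 0.23 for Adora3.

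The genes that these receptors act through ranged from 0 to 1163 CPM in mean level, and none of those tested passed for treatment or age. Counts of lists are given beside the 0% called over all genes in each of the 3 comparisons, and 0 members of any list were called in any of them. Of 9 G protein alpha subunits tested, the most abundant was Gnai2, the inhibitory subunit, at 932.5 CPM with an ethanol log2 fold change of -0.01 ± 0.08, and the list's median was -0.01. Gnaz, another subunit of the inhibitory class, was 1.13 ± 0.10 CPM in ethanol (SD, n = 4) and 0.673 ± 0.140 CPM in saline mice (n = 5), a log2 fold change of 0.73 ± 0.33 with an unadjusted p of 0.0459 by edgeR and an adjusted p of 0.963. The stimulatory subunit Gnas was listed at 2.75 CPM, at a locus of many overlapping transcripts.

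The 9 adenylyl cyclases tested, which make cAMP, had a median ethanol log2 fold change of 0.20, with 7 of 9 above 0, and Adcy7 was the most abundant at 299.8 CPM and -0.16 ± 0.12. The 10 phosphodiesterases tested, which break cAMP down, had a median of 0.003, with Pde3b at 970.5 CPM and -0.08 ± 0.10 and Pde4b at 72.8 CPM and 0.24 ± 0.12 (unadjusted p = 0.0738, adjusted p = 0.963 by edgeR). The 10 cAMP effectors tested (protein kinase A, EPAC and CREB family genes) had a median of 0.01, led by Prkar1a, a regulatory subunit of protein kinase A, at 454.7 CPM and 0.05 ± 0.08, while the catalytic subunit Prkaca had -0.18 ± 0.14. The 6 receptor kinases and arrestins tested, which end receptor signalling, had a median of -0.12 with 1 of 6 above 0. Adrbk1, the kinase now called Grk2, stood at 352.5 CPM and -0.15 ± 0.16 and Arrb2 at 263.1 CPM and -0.26 ± 0.16. Both were lowest in ethanol 2, at 210.6 and 152.8 CPM.

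The supply of the ligands was represented on the adenosine side. Of 9 tested genes of adenosine production, uptake and breakdown, the median ethanol log2 fold change was 0.09 with 7 of 9 above 0. Entpd1 (CD39), the surface enzyme that removes phosphates from extracellular ATP, stood at 1163 CPM and had -0.07 ± 0.10. Nt5e (CD73), which makes adenosine from AMP at the cell surface, had 15 counts in all, in 4 libraries. The equilibrative nucleoside transporter Slc29a2 had 0.51 ± 0.31. On the noradrenaline side, the synthesis enzyme Th had 0 counts in all 9 libraries and Maob, an enzyme that breaks down monoamines, stood at 1.28 CPM and 0.84 ± 1.09. Among 6 tested genes that cAMP is known to induce, the median was 0.03, with Per1 at -0.49 ± 0.65 and Dusp1 at 0.63 ± 0.52, and both varied widely, Per1 from 5.80 to 67.6 CPM and Dusp1 from 6.99 to 43.3 CPM. Per1 was highest in saline 3 and ethanol 1 and lowest in ethanol 2, the same libraries that were highest and lowest for Adrb1.

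**Figure D5:**
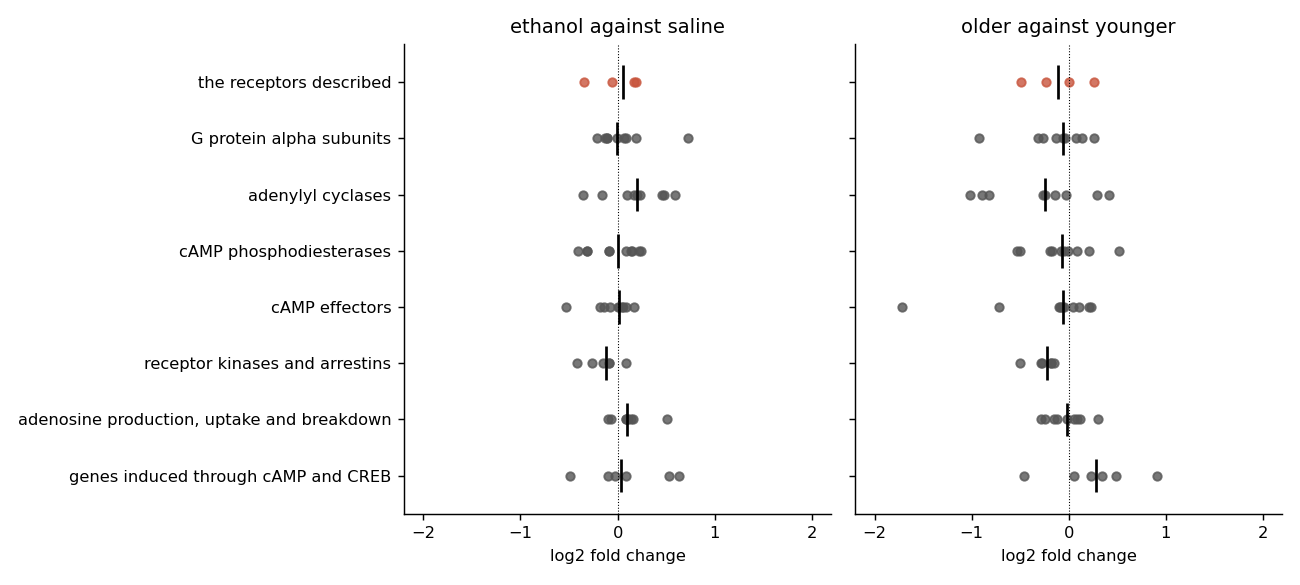
Log2 fold change (x axis) of every tested gene of 8 groups, the receptors described and 7 pathway lists (y axis), 1 point per gene and a line at the median, for ethanol against saline (left) and older against younger mice (right). The list medians for ethanol lie between -0.12 and 0.20, and no gene in either panel passed adjustment.

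In older against younger mice the list medians were -0.06 for the G protein subunits, -0.25 for the cyclases, -0.07 for the phosphodiesterases, -0.06 for the effectors, -0.23 for the kinases and arrestins, -0.01 for the adenosine genes and 0.28 for the cAMP-induced genes (all genes tested, -0.02). All 6 kinases and arrestins lay below 0, with 0 of them called, beside 45.2% of all genes above 0. The older cohort holds ethanol 2, and the part of that library in these values was not tested.

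The genes whose levels followed each receptor most closely were taken from 8212 genes, those of at least 10 CPM without predicted genes, Rik genes and pseudogenes, by Pearson's r of log2(CPM + 1) over the 9 libraries, which share depth, sorting and composition. For Adrb1 these were Dcaf10 (r 0.97), Bmp2k (0.96) and Asxl2 (0.96), with r of 0.92, 0.87 and 0.88 over the 7 libraries without saline 1 and ethanol 2, and 80 genes had an r over 0.9. For Adra2a they included Fam129b (0.96) and Afg3l1 (0.95), with 0.95 and 0.91 over 7 libraries. Adora1 was followed by Ndufab1 (0.95), Kin (0.94) and Pfkm (0.92), and Adora3 by Zfp212 (0.97), Trim25 (0.96) and Szrd1 (0.96), of which Szrd1 had a Spearman rank correlation of 0.55. With 9 points and 8212 candidates these are descriptions of the libraries.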

How the data were processed

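RNA from sorted microglia was sequenced in 9 libraries. The authors deposited a table of raw counts, whole reads per gene symbol, made with Trimmomatic 0.32, STAR 2.4.2a, HTSeq 0.6.1 and GRCm38.p4 per the submitters' processing notes. Their settings, annotation and strandedness are not given in the sources used. Groups and ages came from the labels, and every column was used. Counts were fitted with edgeR 4.0.16 in R 4.3.3: filterByExpr (minimum count 10, total 15), TMM scaling, robust quasi-likelihood F tests and Benjamini-Hochberg adjustment over 13067 genes at 0.05. Ethanol was fitted alone, age cohort with treatment, then their interaction. The fit was tested on simulated data. Alternatives were DESeq2 1.42.0, limma-voom 3.58.1, other scalings and filters, libraries left out, covariates, cohorts alone and, added after seeing the data, each library-name suffix alone. Lengths, GC contents and coordinates came from GENCODE M21. Summed marker levels were compared by exact two-sided permutation (scipy 1.17.1, all splits). From each pathway list the text names the most abundant gene, the one with the smallest ethanol p, and the genes with values that bear on a statement (Gnas, Nt5e and Th, chosen after their values were seen). For each tested receptor the 3 genes of highest r are named. A few genes that these rules pick are not reported here. The members, lists and tests were chosen with earlier results of these data known.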

Additional observations from a re-analysis of the deposited data

Results flagged for a closer look

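Single libraries far from the rest of their group were looked for in 16 groups of 4 or 5 mice (4 receptors by treatment and by cohort), by the gap to the nearest mouse over the group's range. Of these, 5 groups had such a library, and the groups overlap, since each mouse belongs to a treatment and a cohort. The limit used is passed by about 1 in 20 groups of independent, normally distributed values. The share of such groups over all tested genes is not given, so the count cannot be read as particular to these receptors. Adrb1 was highest in saline 3 among the saline mice, at 83.0 CPM, and highest in saline 5 among the younger mice, at 47.9 CPM. Adora3 was lowest in saline 2 both among the saline mice and among the younger mice, at 49.8 CPM, and lowest in ethanol 2 among the older mice, at 45.4 CPM. Saline 2 had the largest library total, 28859244 counts, and its marker sums of 142 CPM for neurons and 118 CPM for astrocytes lay within the range of the others. Its RNA integrity number of 9 was the lowest of the 9 libraries. The part of these in the Adora3 value was not tested.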

How the results depend on the processing

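None of the 4 tested receptors was called for ethanol against saline under any alternative run, and Adrb1 kept its direction there in all of them, from -0.66 to -0.09 (log2). Adra2a turned to -0.20 with limma-voom, to -1.31 in older mice alone and to -0.81 within the name suffix 1-5-16, Adora1 to -0.061 in younger mice alone and to -0.22 within the suffix 1-6-16, and Adora3 to 0.037 without saline 1 and ethanol 2, to 0.040 in younger mice alone and to 0.093 within the suffix 1-6-16. With 1 library left out at a time, the ethanol change ranged from -0.50 (without ethanol 3) to 0.49 for Adra2a, from -0.031 (without ethanol 4) to 0.41 for Adora1 and from -0.11 to 0.026 (without ethanol 2) for Adora3. For older against younger mice, leaving out 1 library gave -0.085 to 0.56 for Adrb1, -0.50 to 0.0084 for Adora1 and -0.051 to 0.11 for Adora3. Adora3 also turned to -0.0041 with limma-voom and to -0.012 with plain library totals. Among saline mice alone Adra2a was 0.50, and among ethanol mice alone Adrb1 was -0.037, Adora1 0.10 and Adora3 -0.13. The age comparison called 97 genes with no count filter, 0 of them receptors, and 3 genes, 1 of them a receptor, without saline 1 and ethanol 2. The interaction called 1 gene with DESeq2, 53 genes and 1 receptor with no count filter, and 0 to 848 genes and 0 to 1 receptors with 1 library left out, the upper values without ethanol 1. The Adrb1 term then ranged from -1.78 to 0.15. The cause of these shifts was not tested, and where cohorts or libraries were left out fewer mice stood behind each value.

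Saline and ethanol mice share the numbers 1 to 4, but their deviations from the group means correlated at -0.05, 0.0003, -0.10 and -0.08, so the numbers were not taken to pair mice. With the replicate block 0 genes were called for ethanol (Adrb1 -0.43, Adora1 0.36) and 0 for age, where Adrb1 was -0.16, Adora1 0.51, Adora3 -0.016 and Adra2a -1.18. By coding length Adra2a was above Adora1 in 3 of 9 libraries. Under the stricter filter Adora1 was not tested. Depth limits Adora2a and Adora2b, at 0.055 and 0.138 CPM, to a statement on detection.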
